A study of Mus musculus with 24 samples.

Results

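The transcripts of 33 genes known for their high activity in hepatocytes were followed in the kidneys of 24 mice, out of 55335 genes counted in each kidney. They were listed by gene symbol, matched to Ensembl gene identifiers through the GRCm38 annotation, and all 33 were found in the files. The list was chosen by known hepatocyte genes with their levels in these same kidneys in view, for the common variation of those levels across samples. The differences between groups and the covariation given here are therefore descriptions of how the list behaved, and they are no independent evidence for it.

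The study compared kidneys of mice with and without Pex5, the receptor that brings proteins into the peroxisomal matrix, in the tubule. The cKOm (male) and cKOf (female) mice carried Pex5lox/lox together with the Pax8-rtTA and LC1 transgenes, and the Ctrlm and Ctrlf mice were Pex5lox/lox littermates without them. All 4 groups were of the C57BL/6J background and had doxycycline (DOX) for 2 weeks from 8 weeks of age, so the controls had the drug and the floxed allele too, and the kidneys were taken 4 weeks after it ended. Each group held 6 mice, RNA came from the whole kidney, and Cre was driven in the renal tubule, so that the other cells of the organ kept Pex5.

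Hepatocytes make most of the proteins of blood plasma, among them albumin, the apolipoproteins, the clotting factors and the inhibitors that hold plasma proteases in check. They also hold enzymes of amino acid breakdown and of the urea cycle. Some of these genes are active in the tubule as well, since the proximal tubule shares with the liver a number of transcription factors and metabolic pathways, and mice express several liver genes in a manner that differs between the sexes.

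The reads assigned to genes numbered from 19376152 to 28470831 a kidney, and 3 reads, the limit that a count of 0 allows, came to between 0.105 and 0.155 CPM, the counts scaled to a common library size (by TMM). Pex5 lay between 49.0 and 62.7 CPM in Ctrlm and between 41.8 and 47.2 in cKOm (edgeR log2 fold change -0.31, SE 0.0822, adjusted p = 0.0219). It lay between 42.9 and 61.7 in Ctrlf and 38.0 and 48.5 in cKOf (edgeR log2 fold change -0.21, adjusted p = 0.177). These counts cover the whole gene and all cells of the kidney, and they do not measure the deletion. In the study's own assays Pex5 mRNA was significantly reduced in both sexes. PEX5 protein was nearly gone in cKOm and lower but detectable in cKOf. By electron microscopy, proximal tubules of both had virtually no peroxisomes. The summed level of 9 kidney markers, with Kap, Slc34a1 and Lrp2 the most abundant, lay between 24720 and 41300 CPM in Ctrlm, and between 15390 and 19240 in cKOm, 16110 and 18470 in Ctrlf and 14420 and 17210 in cKOf. Ctrlm thus stood apart from cKOm in this sum. Kap was its largest part in males, at 13500 to 30790 CPM in Ctrlm and 4691 to 7869 CPM in cKOm. The markers did not move together, since Slc34a1 and Lrp2 were lower in cKOm (both log2 fold changes -0.33) and Slc12a1 was higher (0.33). The part of this sum in the results was not tested. Nothing in the labels says whether kidneys of a group were dissected or extracted together.

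In 5 of the 24 kidneys, Ctrlm mice 1, 2, 3 and 4 and cKOm mouse 4, the hepatocyte transcripts stood far above the rest. Alb, which encodes albumin, was at 456, 547, 661 and 224 CPM in those Ctrlm kidneys and at 235 CPM in cKOm mouse 4. The other 19 kidneys lay between 15.1 and 60.2 CPM, so a line at 100 CPM of Alb parted them, with 224 CPM the nearest value above it and 60.2 CPM the nearest below. For 21 of the 33 transcripts the same 5 kidneys were the 5 highest of all 24. The lowest of the 5 then exceeded the highest of the other 19 by between 1.02-fold (Fga) and 7.30-fold (Cps1), with Rbp4 in the middle at 2.79-fold. The remaining 12 were Apob, Apoc3, Apoh, Ttr, Serpina1a, Serpina1b, Serpina1d, Serpina1e, Hp, Itih1, Itih2 and Hpd. Each test was therefore also run without these 5 kidneys, which leaves 2 Ctrlm and 5 cKOm mice, a choice made after their values were seen. In bulk RNA of this kind, fewer cells of a type and less RNA per cell cannot be told apart.

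**Figure D1:**
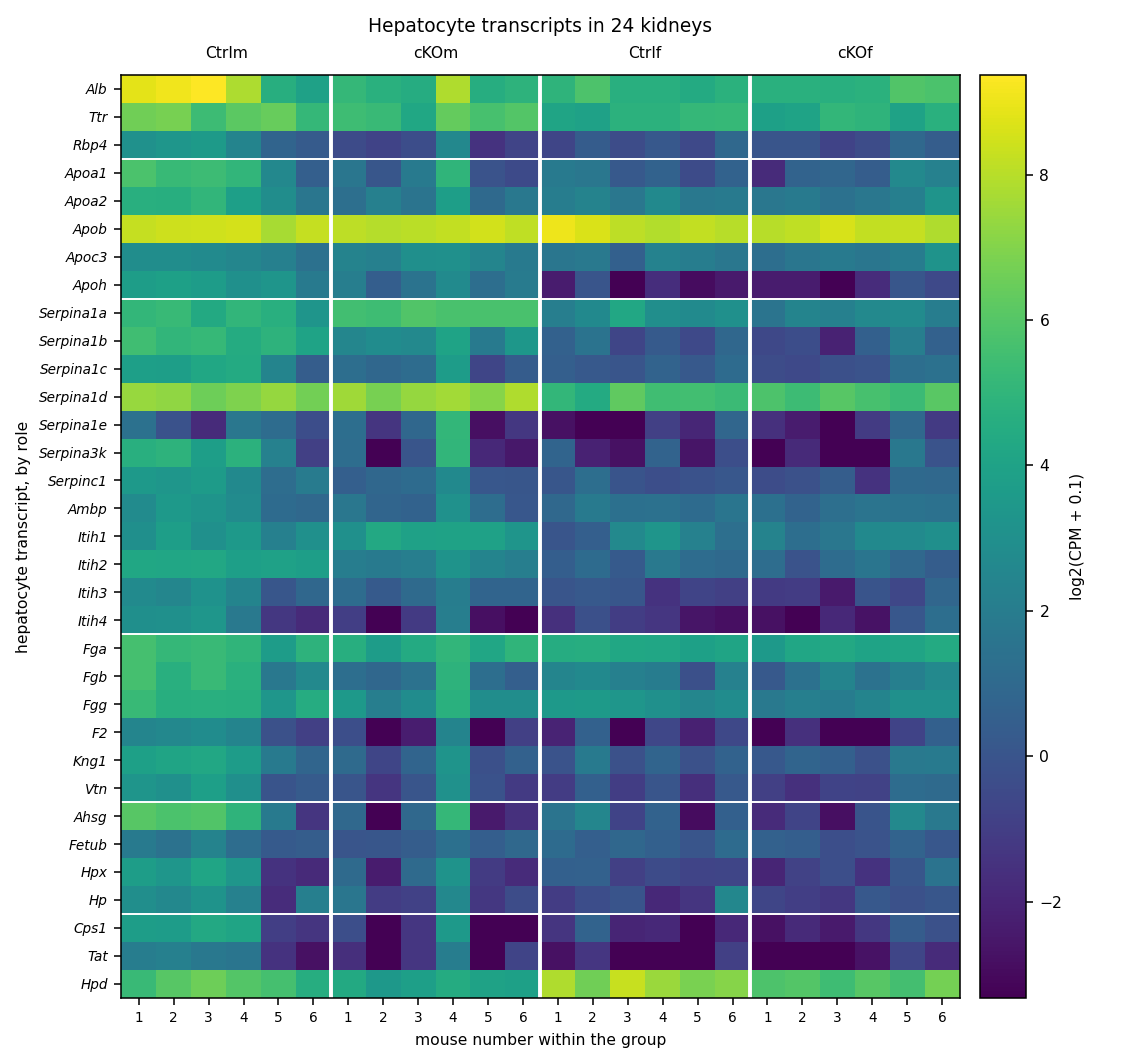
Each row is 1 of the 33 hepatocyte transcripts, ordered by role, and each column is 1 kidney, with the mouse number within its group below. Colour gives log2(CPM + 0.1). Ctrlm mice 1 to 4 and cKOm mouse 4 form bright columns over most rows, while Apob, Serpina1d and Hpd are bright across other kidneys too.

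Among the carrier proteins, Alb had the highest level per kilobase of exon of all 33 in Ctrlm, with a median of 145 CPM per kb. Alb levels were at a lowest of 15.1, a median of 340 and a highest of 661 CPM in Ctrlm, against 23.2, 27.7 and 235 CPM in cKOm. They were 21.6, 26.9 and 56.0 CPM in Ctrlf and 25.8, 27.4 and 60.2 CPM in cKOf. The Ctrlm kidneys split into 4 high and 2 low ones, and the single high cKOm kidney fell inside the Ctrlm range. In the fit the log2 fold change of Alb in males was -2.38 (SE 0.672, edgeR adjusted p = 0.0353), and limma-voom did not call it (adjusted p = 0.124). Without the 5 kidneys it was 0.42 (SE 0.363, edgeR adjusted p = 0.689). Those kidneys were set apart by Alb itself, so the loss of its difference followed from that choice, and nothing is read from it.

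Alb lies on chromosome 5 of GRCm38 at 90460897 to 90476602 on the plus strand. The 120 bases before its RefSeq start (GRCm38.p6, chr5:90460750-90460869, plus strand) are shown because Alb was the transcript used to part the kidneys. The capitals mark the one match there to GTTAAT, part of the site of the liver and kidney factor HNF1.
Alb: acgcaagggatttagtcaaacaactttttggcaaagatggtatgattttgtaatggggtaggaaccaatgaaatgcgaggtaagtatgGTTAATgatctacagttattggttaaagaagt

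Rbp4, which encodes the retinol carrier of plasma, had the same form at a lower level. Its lowest, median and highest values were 1.14, 6.82 and 12.0 CPM in Ctrlm and 0.268, 0.574 and 5.96 CPM in cKOm, with cKOm mouse 4 the one cKOm kidney above 1 CPM. In females Rbp4 ranged from 0.524 to 1.86 CPM in Ctrlf and from 0.495 to 1.87 CPM in cKOf, which overlap over almost the whole range. The male log2 fold change was -2.19 (SE 0.612, edgeR adjusted p = 0.0329), and -1.44 (adjusted p = 0.197) without the 5 kidneys. Ttr, transthyretin, the carrier of thyroid hormone, was present in all 24 kidneys, from 14.6 to 109 CPM. Its highest kidney was Ctrlm mouse 2, but Ctrlm mouse 5, low in Alb, held 86.5 CPM of Ttr and Ctrlm mouse 3, highest in Alb, held 42.1 CPM. The medians of Ttr were 79.9, 46.4, 28.4 and 21.6 CPM in Ctrlm, cKOm, Ctrlf and cKOf, and neither genotype difference passed the threshold (edgeR adjusted p = 0.372 in males and 0.811 in females).

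Of the 5 apolipoproteins, which wrap and steer plasma lipids, Apoa1 and Apoa2 of high-density lipoprotein rose and fell with Alb. Apoa1 was at 54.3, 37.4, 42.1, 32.4, 6.05 and 1.33 CPM in Ctrlm mice 1 to 6, and at 31.1 CPM in cKOm mouse 4 against 0.6248 to 3.72 CPM in the other 5 cKOm kidneys. Some female kidneys stood somewhat above their group, with 6.10 and 4.63 CPM in cKOf mice 5 and 6 against 0.195 to 1.75 CPM in cKOf mice 1 to 4. The male log2 fold change of Apoa1 was -2.12 (SE 0.788) and did not pass the threshold (edgeR adjusted p = 0.142). Apoa2 had a lowest, median and highest value of 3.09, 19.5 and 32.5 CPM in Ctrlm and 1.92, 3.05 and 13.8 CPM in cKOm, and differed by -1.91 on the log2 scale (SE 0.467, edgeR adjusted p = 0.0125), or by -0.83 without the 5 kidneys (adjusted p = 0.426).

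Apob, the large structural protein of low-density and very-low-density lipoprotein, did not have this pattern. It was at 208 CPM or more in every kidney, with medians of 325, 279, 284 and 290 CPM in Ctrlm, cKOm, Ctrlf and cKOf, and its highest kidney was Ctrlf mouse 1 at 536 CPM. The groups overlapped throughout, and the log2 fold changes were -0.12 in males and -0.18 in females (SE 0.165 in both). Apoc3, an inhibitor of triglyceride clearance, ranged from 1.40 to 8.96 CPM over all kidneys and was highest in cKOf mouse 6. Apoh, beta-2-glycoprotein I, which binds phospholipid, was mostly a transcript of male kidneys. Its lowest, median and highest values were 3.56, 11.4 and 14.5 CPM in Ctrlm and 1.29, 3.25 and 6.55 CPM in cKOm. No female kidney exceeded 0.957 CPM of Apoh, and the 6 Ctrlf kidneys lay wholly below the 6 Ctrlm kidneys. Ctrlm mouse 5, with only 24.7 CPM of Alb, held 9.85 CPM of Apoh.

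Among the 12 protease inhibitors and inter-alpha-trypsin inhibitor chains, 6 had the 5 kidneys as their highest and 6 did not. The 5 Serpina1 genes, which encode the alpha-1-antitrypsins of the mouse, lie near each other on the minus strand of chromosome 12 and did not share 1 pattern. Serpina1d was high in every male kidney, from 95.5 to 171 CPM in Ctrlm and from 108 to 231 CPM in cKOm, and lower in females, from 21.8 to 77.3 CPM in Ctrlf and from 39.5 to 69.3 CPM in cKOf. Its Ctrlm and Ctrlf kidneys did not overlap, its male genotype groups did, and the male log2 fold change was 0.34 (SE 0.2196, edgeR adjusted p = 0.494).

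Serpina1a was the one transcript of the 33 that passed the threshold as higher in cKOm. It lay at a lowest of 9.84, a median of 29.4 and a highest of 37.7 CPM in Ctrlm and at 43.3, 52.1 and 61.6 CPM in cKOm. All 6 cKOm kidneys were above all 6 Ctrlm kidneys. The log2 fold change was 0.94 (SE 0.274, edgeR adjusted p = 0.0435). That call was close to the threshold. DESeq2 did not make it (adjusted p = 0.0573), it was lost in 13 of the 24 fits that left out 1 kidney and, without the 5 kidneys, the log2 fold change was 1.48 with an adjusted p of 0.0868. In females Serpina1a lay between 4.14 and 19.4 CPM in Ctrlf and between 2.82 and 6.94 CPM in cKOf, with a log2 fold change of -0.82 (SE 0.2997, edgeR adjusted p = 0.135). Taken as male minus female, the 2 genotype effects differed by 1.75 (SE 0.406, edgeR adjusted p = 0.0154).

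Serpina1b went the other way. Its lowest, median and highest values were 16.3, 31.1 and 44.7 CPM in Ctrlm and 3.61, 6.65 and 16.6 CPM in cKOm, where only cKOm mouse 4 reached the lowest Ctrlm kidney. Ctrlm mouse 5, low in Alb, held 29.6 CPM of Serpina1b, and no female kidney exceeded 4.23 CPM. The male log2 fold change was -1.89 (SE 0.415, edgeR adjusted p = 0.00485), and -1.84 without the 5 kidneys, where it did not pass (adjusted p = 0.135). Serpina1c followed Alb, with 12.9 to 21.8 CPM in the 5 kidneys and at most 5.11 CPM elsewhere. Serpina1e was at 33.6 CPM in cKOm mouse 4 and at no more than 3.18 CPM in any other kidney, Ctrlm mice 1 to 4 included.

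The coding sequences of the 5 Serpina1 genes are 1242 bases long in the GENCODE transcripts and 96.3% to 98.5% identical in pairs. Of all 100-base windows of the coding sequence, 61.2% of Serpina1a, 27.9% of Serpina1b, 61.7% of Serpina1c, 29.8% of Serpina1d and 19.1% of Serpina1e also occur without a difference in another of the 5. A read that lies wholly in such a window cannot be assigned to 1 gene (the read length is not given in the sources used here), and the Serpina1d gene lies inside the annotated span of Serpina1b, so the split of reads among the 5, and between Serpina1a and Serpina1c most of all, is uncertain. The 60 bases where they differ most are coding bases 1101 to 1160, shown here with capitals at the 18 positions that are not the same in all 5. They lie on the minus strand of chromosome 12 of GRCm38, for Serpina1a at chr12:103853757-103853816 and for Serpina1e at chr12:103947100-103947159.
Serpina1a: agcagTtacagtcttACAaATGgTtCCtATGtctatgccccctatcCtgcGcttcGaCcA
Serpina1b: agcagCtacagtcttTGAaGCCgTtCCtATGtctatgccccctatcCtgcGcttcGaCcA
Serpina1c: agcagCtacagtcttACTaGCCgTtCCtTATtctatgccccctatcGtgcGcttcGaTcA
Serpina1d: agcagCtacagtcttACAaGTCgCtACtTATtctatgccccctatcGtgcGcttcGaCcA
Serpina1e: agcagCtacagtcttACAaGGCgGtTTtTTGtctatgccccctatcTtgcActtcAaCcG

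Serpina3k, a kallikrein inhibitor, was at 25.7, 29.8, 13.7 and 28.6 CPM in Ctrlm mice 1 to 4 and at 32.6 CPM in cKOm mouse 4, its highest kidney. It was at or under 3 counts in 8 kidneys. Serpinc1, antithrombin, the main inhibitor of thrombin, had a lowest, median and highest value of 2.24, 8.23 and 12.5 CPM in Ctrlm and 0.937, 1.57 and 6.35 CPM in cKOm. Its male log2 fold change was -1.78 (SE 0.465, edgeR adjusted p = 0.02001), against -1.13 (adjusted p = 0.367) without the 5 kidneys. Ambp, the precursor of alpha-1-microglobulin and bikunin, ranged from 6.78 to 11.3 CPM in the 5 kidneys and from 0.976 to 3.49 CPM in the other 19.

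The 4 inter-alpha-trypsin inhibitor heavy chains differed from each other. Itih2 had the smallest p of the 33 transcripts in the male comparison. Ctrlm mice 1 to 6 held 18.7, 18.4, 19.6, 14.04, 15.4 and 13.5 CPM of Itih2, and cKOm mice 1 to 6 held 4.11, 3.59, 4.17, 9.18, 5.17 and 4.14 CPM. The 2 groups did not overlap, and Ctrlm mice 5 and 6, low in Alb, were at about the level of Ctrlm mouse 4. Within the groups the kidneys high in Alb were also high in Itih2, with Ctrlm mice 1, 2 and 3 the highest of Ctrlm and cKOm mouse 4 the highest of cKOm. In females Itih2 lay between 1.11 and 3.45 CPM in Ctrlf and between 0.840 and 2.98 CPM in cKOf. The male log2 fold change was -1.72 (SE 0.254, edgeR adjusted p = 4.79e-05), the female one -0.09 (SE 0.279), and their difference -1.63 (SE 0.376, adjusted p = 0.0144). Without the 5 kidneys the male value was -1.81 (SE 0.338, adjusted p = 0.00365), the one male call among the 33 transcripts that was left in that fit. With any 1 kidney left out the adjusted p of Itih2 was at most 0.000265.

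Itih1 had a median of 8.26 CPM in Ctrlm and 15.3 CPM in cKOm and was highest in cKOm mouse 2, a kidney in which 7 of the 33 transcripts were at or under 3 counts. Its groups overlapped and its male log2 fold change of 0.64 did not pass the threshold (SE 0.380, edgeR adjusted p = 0.448). Itih3 and Itih4 followed Alb. Itih4 was at 7.92, 8.27, 10.02 and 3.43 CPM in Ctrlm mice 1 to 4 and at 4.20 CPM in cKOm mouse 4, and was at or under 3 counts in 8 kidneys. The 120 bases before the RefSeq start of Itih2 (GRCm38.p6, chr2:10130684-10130803, minus strand) are shown as those of the transcript with the smallest p in the male comparison. The capitals mark a match to TTGCNCAA, the core of a C/EBP site, on the opposite strand, and GTTAAT was not found in the 300-base window.
Itih2: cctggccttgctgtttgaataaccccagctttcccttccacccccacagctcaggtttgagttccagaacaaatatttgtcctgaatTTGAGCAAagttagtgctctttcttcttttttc

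All 6 coagulation and adhesion transcripts had the 5 kidneys as their 5 highest, but 2 of the 3 fibrinogen chains did so by a small margin. Fga, Fgb and Fgg encode the alpha, beta and gamma chains that are assembled into fibrinogen, the precursor of the clot. Fgb was at 25.6 to 49.8 CPM in the 5 kidneys and at 0.767 to 6.49 CPM in the other 19. Fga was at 31.9 to 50.1 CPM in the 5 but still at 11.3 to 31.1 CPM elsewhere, with cKOm mouse 6 and Ctrlm mouse 6 at 31.1 and 29.6 CPM. Fgg was at 25.0 to 37.0 CPM in the 5 and reached 23.4 CPM in Ctrlm mouse 6. Fgg passed the threshold in males, with a lowest, median and highest value of 10.01, 25.1 and 37.0 CPM in Ctrlm and 4.21, 7.36 and 26.2 CPM in cKOm (log2 fold change -1.21, SE 0.332, edgeR adjusted p = 0.0283). Its log2 fold change without the 5 kidneys was -1.20, with an adjusted p of 0.0953.

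Kng1, kininogen, the source of bradykinin, was at 1.66, 13.6 and 19.3 CPM (lowest, median and highest) in Ctrlm and at 0.526, 1.53 and 9.43 CPM in cKOm, with a log2 fold change of -2.13 (SE 0.595, edgeR adjusted p = 0.0328). It was -1.06 without the 5 kidneys (adjusted p = 0.505). F2, prothrombin, and Vtn, vitronectin, an adhesion protein of plasma and matrix, had male log2 fold changes of -1.97 and -1.85 that did not pass the threshold (edgeR adjusted p = 0.314 and 0.165). F2 was at 5.13 to 7.11 CPM in the 5 kidneys and at most 1.46 CPM in any other. Vtn was at 7.94 to 14.3 CPM in the 5 and at most 2.15 CPM elsewhere. The windows before Fgb (GRCm38.p6, chr3:83049864-83049983, minus strand) and Vtn (chr11:78499000-78499119, plus strand) are shown for their matches to GTTAAT on the opposite strand, in capitals, and in Fgb to TTGCNCAA as well.
Fgb: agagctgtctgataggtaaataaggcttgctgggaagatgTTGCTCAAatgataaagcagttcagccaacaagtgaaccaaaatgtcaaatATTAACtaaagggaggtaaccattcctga
Vtn: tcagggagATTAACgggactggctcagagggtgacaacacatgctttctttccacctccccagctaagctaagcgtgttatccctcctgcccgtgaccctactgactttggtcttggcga

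None of the 4 binding glycoproteins and acute phase proteins passed the threshold in either genotype comparison. Ahsg encodes fetuin-A, a liver glycoprotein that keeps calcium phosphate in solution. It was at 67.1, 54.1, 60.9, 30.9, 3.70 and 0.285 CPM in Ctrlm mice 1 to 6, at 35.5 CPM in cKOm mouse 4, and at 0 in cKOm mouse 2, where a count of 0 allows up to the limit of 3 counts given above. Over the other 19 kidneys its highest value was 6.22 CPM, in cKOf mouse 5. The male log2 fold change was -2.47 with an SE of 1.05 (edgeR adjusted p = 0.221). Fetub, fetuin-B, spanned only 0.720 to 5.08 CPM. Hpx, hemopexin, which binds heme, was at 8.94 to 17.7 CPM in the 5 kidneys and at most 2.76 CPM in the others. Hp, haptoglobin, which binds haemoglobin, was at 4.61 to 9.08 CPM in the 5 kidneys, but also at 5.71 CPM in Ctrlf mouse 6 and 4.33 CPM in Ctrlm mouse 6. Of the fat marker Cfd (adipsin) these last 2 held 166 and 29.1 CPM, but cKOm mouse 1 held 42.1 CPM with 3.06 CPM of Hp, and cKOf mouse 1 held 22.8 CPM with 0.535 CPM of Hp. The part of fat tissue in the level of Hp was not tested.

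Of the 3 enzymes, 2 followed Alb and 1 did not. Cps1, the first enzyme of the urea cycle, and Tat, tyrosine aminotransferase, are made at high level in hepatocytes. Cps1 was at 13.4, 12.7, 20.4 and 16.7 CPM in Ctrlm mice 1 to 4 and at 11.3 CPM in cKOm mouse 4, against at most 1.55 CPM in the other 19 kidneys. Tat was at 2.97 to 4.48 CPM in the 5 and at most 0.518 CPM in the others, 11 of them at or under 3 counts. Cps1 and Tat thus had the widest gaps between the 5 kidneys and the rest, with Cps1 first and Tat second among the 33.

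Hpd, 4-hydroxyphenylpyruvate dioxygenase, the enzyme that follows Tat in tyrosine breakdown, was highest in control females. Its lowest, median and highest values were 97.5, 157 and 314 CPM in Ctrlf, 42.5, 59.8 and 107 CPM in cKOf, 24.1, 55.9 and 96.3 CPM in Ctrlm and 10.9, 15.3 and 21.98 CPM in cKOm. All cKOm kidneys were below all Ctrlm kidneys, and in females only cKOf mouse 6 was above the lowest Ctrlf kidney. The log2 fold change was -1.78 in males (SE 0.296, edgeR adjusted p = 0.000216) and -1.47 in females (SE 0.285, edgeR adjusted p = 0.00135). Hpd was the one transcript of the 33 that passed the threshold in females, and the male and female effects differed by -0.31 (SE 0.402, adjusted p = 0.794). Without the 5 kidneys the male log2 fold change was -1.30 (adjusted p = 0.0777) and the female one -1.48 (adjusted p = 0.00253). The 120 bases before the RefSeq start of Hpd (GRCm38.p6, chr5:123182724-123182843, minus strand) are shown for comparison with Alb, and none of the 5 motifs searched was found in them.
Hpd: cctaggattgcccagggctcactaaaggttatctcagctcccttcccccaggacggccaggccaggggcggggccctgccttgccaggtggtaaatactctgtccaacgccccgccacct

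**Figure D2:**
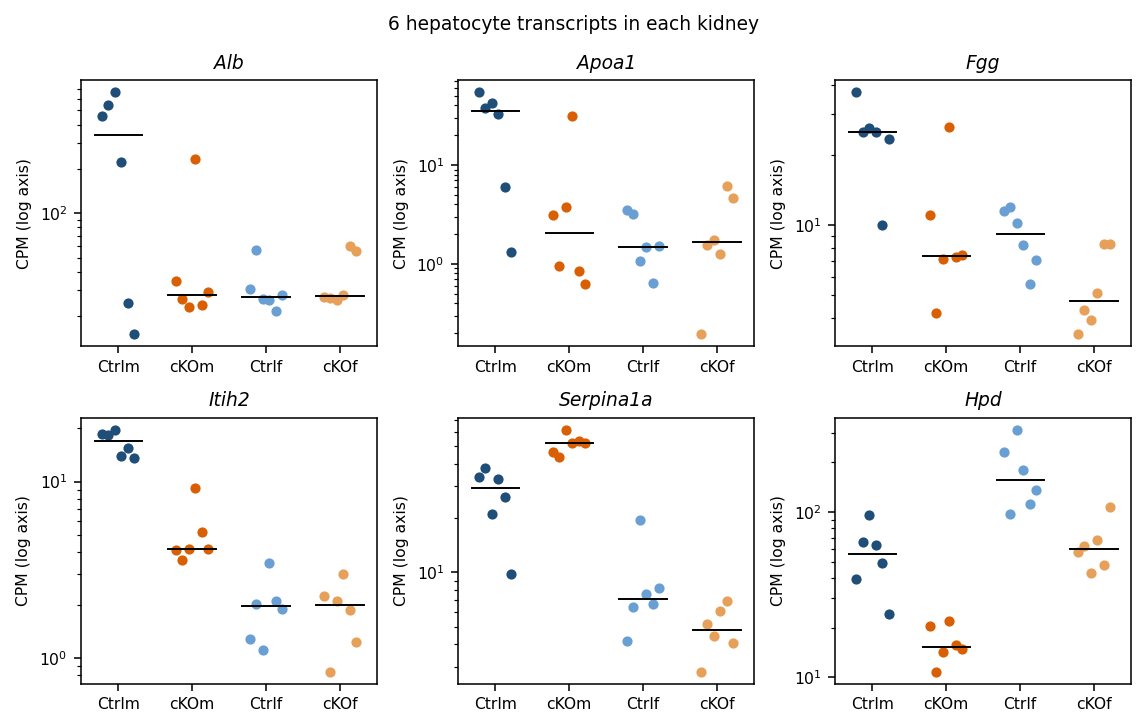
Levels of 6 transcripts in each of the 24 kidneys (points) by group, in CPM on a log axis, with the group median as a line. For Alb, Apoa1 and Fgg 1 cKOm kidney lies among the high Ctrlm kidneys, while Itih2, Serpina1a and Hpd separate the Ctrlm from the cKOm kidneys without overlap.

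In the comparison of cKOm with Ctrlm, 10 of the 33 transcripts passed the threshold of an adjusted p of 0.05, 1 higher and 9 lower, where 9.05% of all 16092 tested genes did, 4.14% higher and 4.9% lower. Lower were Alb, Rbp4, Apoa2, Serpina1b, Serpinc1, Itih2, Fgg, Kng1 and Hpd. Since the levels of these kidneys were in view when the list was drawn up, nothing is read from that count. The median log2 fold change of the 33 was -1.72, against 0.01 over all tested genes, with 28 negative and 5 positive values. Without the 5 kidneys the median was -0.82 and 1 of 32 tested transcripts passed, where 3.75% of all genes did. With a hepatocyte index of 50 other transcripts as a covariate 2 passed, Itih2 and Hpd, and the share of all genes in that fit was not computed. Of those 50, 6 passed as lower in cKOm themselves and 1 as higher, so the index can take up part of a genotype difference.

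The male count turned on single kidneys. It was 22, all lower, without cKOm mouse 4, and it was 5 without Ctrlm mouse 1, 4 without Ctrlm mouse 3, 5 without cKOm mouse 1, 2 or 3, and 4 without cKOm mouse 5 or 6. The share of all genes called in these fits was not computed, so whether calls over all genes moved alike is not known. Of the named calls, those of Itih2, Hpd, Serpina1b and Apoa2 held with each of the 24 kidneys left out in turn, and those of Alb, Rbp4, Kng1, Fgg and Serpinc1 were lost in between 5 and 9 of these fits. Of the 33 transcripts, 3 did not overlap between 6 cKOm and 6 Ctrlm kidneys, Serpina1a, Itih2 and Hpd, where 7.37% of all tested genes did not overlap, 3.68% higher and 3.69% lower.

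In the comparison of cKOf with Ctrlf, 1 of 33 passed, Hpd, where 0.851% of all tested genes did, 0.391% higher and 0.46% lower. Before adjustment 3 of the 33 lay under 0.05. The median log2 fold change of the 33 was 0.04, against 0.00 over all genes. Hpd was again the 1 called without the 5 kidneys, where 0.52% of all genes were. For the difference between the male and female genotype effects, 2 passed, Serpina1a and Itih2, where 2.31% of all genes did, 0.82% with a positive and 1.49% with a negative difference. Without cKOm mouse 4 this count was 14, and the share of all genes called in that fit was not computed. No member separated the 6 cKOf from the 6 Ctrlf kidneys, where 0.559% of all tested genes did, 0.267% higher and 0.292% lower.

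In Ctrlm against Ctrlf, a comparison that shares the Ctrlm kidneys with the male one, 27 of 33 passed, 26 higher in Ctrlm and Hpd lower, where 16.8% of all genes did, 8.71% higher and 8.11% lower. Without the 5 kidneys 6 of 32 passed: Apoh (log2 difference 4.91), Serpina1b (4.09), Itih2 (2.89), Serpina1d (1.61) and Ttr (1.21) were higher in Ctrlm and Hpd was lower (-2.26). Of these, Ttr was near the threshold (edgeR adjusted p = 0.0497). The share of all genes called in that fit was not computed, so nothing is read from the count of 6. Apoh, Serpina1b, Serpina1d and Itih2 were higher in all 6 Ctrlm than in all 6 Ctrlf kidneys and Hpd was lower in all 6, which makes 5 of 33 without overlap, where 7.34% of all tested genes had none, 3.95% higher and 3.39% lower.

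**Figure D3:**
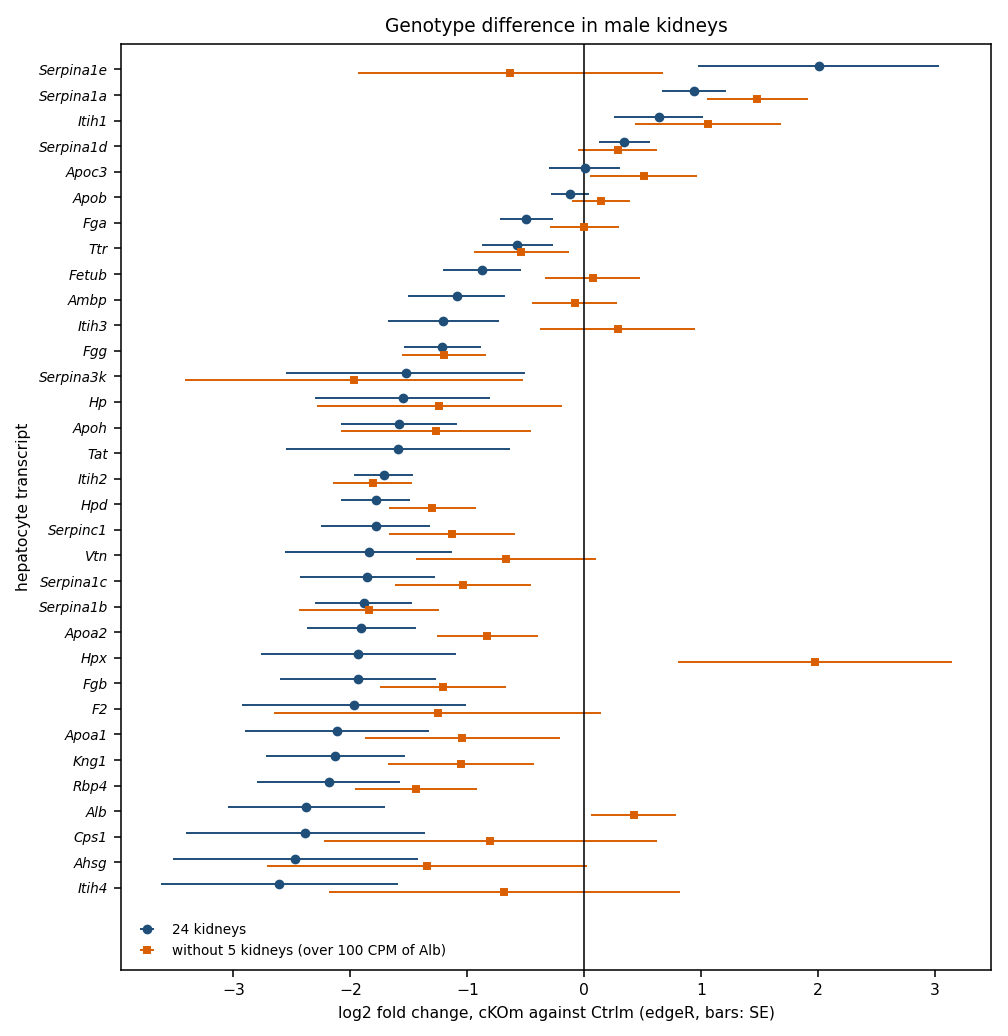
Log2 fold change of cKOm against Ctrlm for each of the 33 transcripts (edgeR), with bars for the SE, in all 24 kidneys (circles) and without the 5 kidneys with over 100 CPM of Alb (squares). Tat was not tested in the smaller set. Alb moves from -2.38 to 0.42, which follows from the choice of the 5 kidneys by Alb. Itih2 stays at -1.72 and -1.81.

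Within the 19 kidneys left without the 5, the log2 levels of the transcripts were also compared with a hepatocyte index, the mean log2 CPM of 50 other liver transcripts that are not among the 33. Over all 24 kidneys 13 of the 33 had a Spearman rho with the index of at least 0.8, but the kidneys fall into 2 clusters, so that no pooled value is given for a single one of the 33. Over the 19, rho ranged from -0.15 (Serpina1d) to 0.88 (Ahsg) with a median of 0.54, and Ahsg, Cps1 and F2 reached 0.8. For 10 of the 33 rho was under 0.3: Apob, Apoc3, Serpina1a, Serpina1d, Ttr, Itih1, Itih2, Hpd, Fga and Fetub. Fga (0.216) and Fetub (0.179) were among the 21 with the 5 kidneys as their highest. These points share libraries and depth, and the values are descriptions.

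The proportions of the transcripts to each other were also compared among the 5 kidneys, taking Ahsg as the reference since it was near 0 in most others. Ahsg itself spanned only 30.9 to 67.1 CPM over the 5, so a narrow range of a ratio does not show that a transcript moved with it, and Apob, which lacked the pattern, had a ratio between 4.62 and 11.99. The ratio of Serpinc1 lay between 0.165 and 0.211 and that of Apoa2 between 0.380 and 0.534. Alb was 6.79, 10.1, 10.9 and 7.26 times Ahsg in Ctrlm mice 1 to 4 and 6.62 times in cKOm mouse 4. The widest ratio was that of Serpina1e, from 0.00324 in Ctrlm mouse 3 to 0.948 in cKOm mouse 4. Beyond 3-fold were also Ttr, Serpina1a, Serpina1c, Serpina1d, Serpina3k, Itih1 and Hpd.

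**Figure D4:**
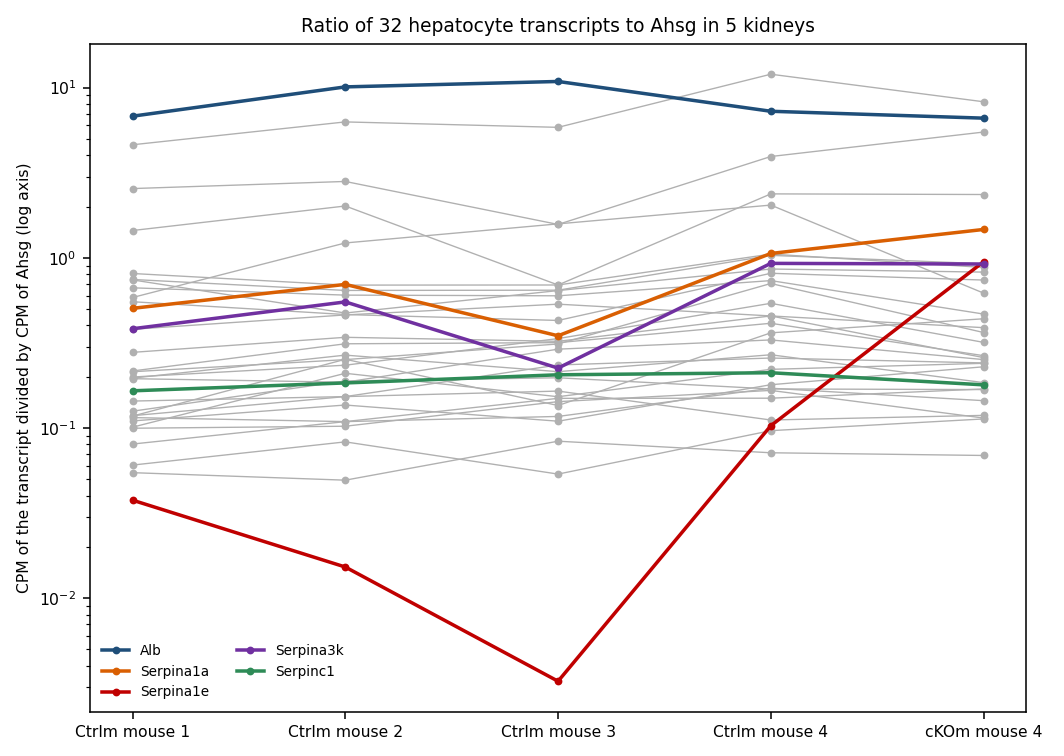
CPM of each of 32 transcripts divided by the CPM of Ahsg in the 5 kidneys with over 100 CPM of Alb, on a log axis, with lines that join the values of 1 transcript and 5 of them coloured. Serpina1e spans 0.00324 to 0.948, and Alb 6.62 to 10.9.

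The 50 other hepatocyte transcripts were examined in the same way. For 28 of the 50 the same 5 kidneys were the 5 highest. Of the 48 that were tested, 7 passed the threshold in males, 1 higher and 6 lower, where 9.05% of all tested genes did. In females none passed by edgeR, limma-voom or DESeq2, where 0.851% of all genes did by edgeR, and 3 lay under 0.05 before adjustment by edgeR. The male count was 35, 34 of them lower, without cKOm mouse 4. Many of the 50 reached the minimum level for testing only in the 5 kidneys. With cKOm mouse 4 left out, these entered the test through Ctrlm kidneys alone. Their lower level in cKOm was then fixed by the filter, and nothing is read from that count. Among the most abundant, F13b, a subunit of clotting factor XIII, lay between 135 and 246 CPM over all kidneys. Proc, protein C, had a male log2 fold change of -0.62 (SE 0.127, edgeR adjusted p = 0.00250). Serpinf2, alpha-2-antiplasmin, lay between 166 and 241 CPM in Ctrlm and between 71.2 and 93.7 CPM in cKOm, with no overlap (log2 fold change -1.34, SE 0.107, edgeR adjusted p = 3.60e-09). Aadac, arylacetamide deacetylase, was found at 50.8 to 142 CPM. These 4, the most abundant of the list, were at 27.4 CPM or more in every kidney, and none had the 5 kidneys as its 5 highest.

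Transcripts that the liver makes in 1 sex divided the 5 kidneys further. Cyp2b9, a cytochrome P450 that is female-biased in mouse liver, was at 1.88, 2.57 and 5.13 CPM in Ctrlm mice 1, 2 and 3. It was at 0 in Ctrlm mice 4, 5 and 6 and in cKOm mouse 4. Cyp2b13 was at 1.34, 1.61 and 2.07 CPM, A1bg at 1.04, 0.955 and 1.28 CPM and Cyp3a41a at 1.29, 1.09 and 1.58 CPM in Ctrlm mice 1, 2 and 3, and all 3 were at 0 in Ctrlm mouse 4 and cKOm mouse 4. The sum of 14 female-biased liver transcripts was 21.4, 19.99 and 22.2 CPM in Ctrlm mice 1, 2 and 3 and at most 4.14 CPM in any other kidney, females included. Of 8 tested, 4 passed the threshold as lower in cKOm (A1bg, Cyp2b9, Cyp2b13 and Cyp2c40), where 4.9% of all tested genes did. These 4 reached the minimum level for testing in Ctrlm kidneys alone. Their direction was thus fixed by the filter, and nothing is read from that count. None of the 4 passed with the hepatocyte index as a covariate (edgeR adjusted p from 0.158 for Cyp2c40 to 0.783 for Cyp2b13), and none was tested without the 5 kidneys, where they did not reach the minimum level.

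The male-biased liver transcripts took the opposite order. Mup7, a major urinary protein, was at 12.7 CPM in Ctrlm mouse 4 and 14.2 CPM in cKOm mouse 4, and at 0.0495, 0.0988 and 0 CPM in Ctrlm mice 1, 2 and 3. Mup20 was at 3.84 CPM in Ctrlm mouse 4 and 12.99 CPM in cKOm mouse 4 and at most 0.345 CPM in Ctrlm mice 1, 2 and 3. Serpina1e, described above, was likewise highest in cKOm mouse 4 and second highest in Ctrlm mouse 4. Cyp2d9, on the same list, was high in all 6 Ctrlm kidneys, from 83.6 to 241 CPM, so its level did not mark these kidneys.

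Xist, the transcript of the inactive X chromosome of females, was looked at after these values were seen. It was at 1.98, 2.64, 2.71, 0.871, 0.313 and 2.42 CPM in Ctrlm mice 1 to 6 and at most 0.351 CPM in cKOm, against 392 to 1061 CPM in the female kidneys. The source of the RNA behind these levels was not tested.

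**Figure D5:**
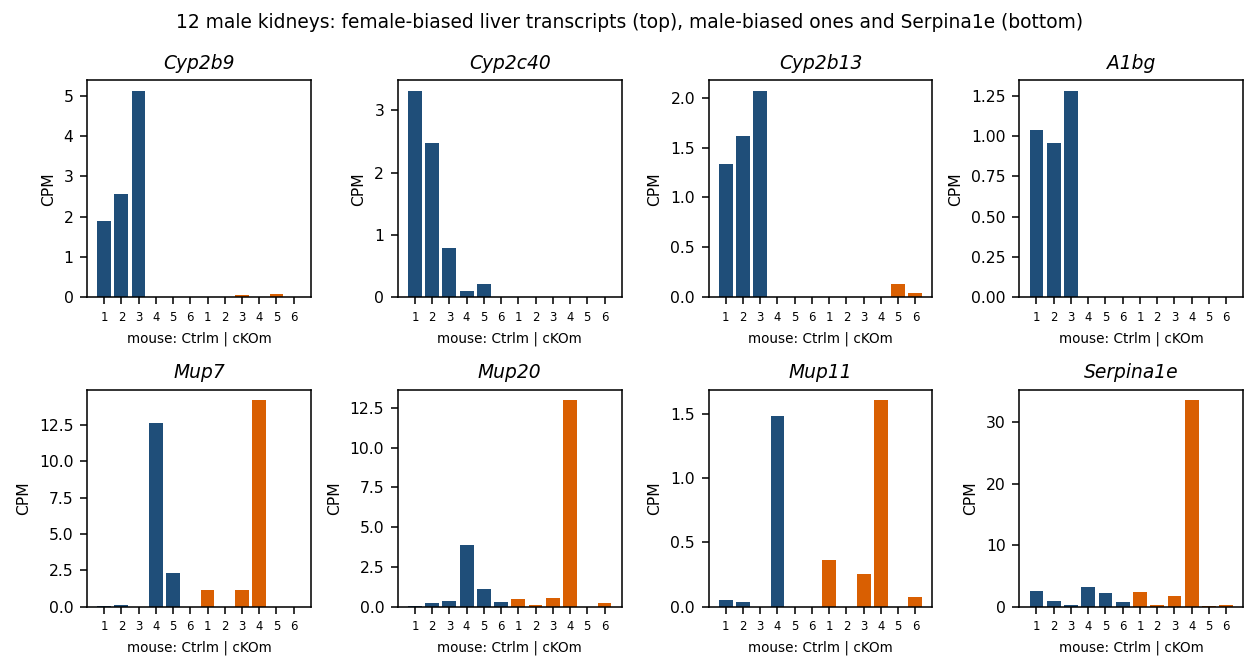
CPM of 4 female-biased liver transcripts (top) and of 3 male-biased ones and Serpina1e (bottom) in the 12 male kidneys, Ctrlm mice 1 to 6 then cKOm mice 1 to 6. The top bars stand in Ctrlm mice 1, 2 and 3, and the tallest bottom bars in cKOm mouse 4, with Ctrlm mouse 4 next.

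Markers of other cells and organs were measured beside these. Of 10 markers of liver sinusoidal and resident macrophage cells, 2 had the 5 kidneys as their 5 highest, Clec4f and Cd5l, and 8 did not. Clec4f was at 0.495, 0.395, 0.790 and 0.103 CPM in Ctrlm mice 1 to 4 and at 0.147 CPM in cKOm mouse 4, and at 0 in each of the other 19 kidneys. Cd5l was at 1.39, 0.527, 2.27 and 0.513 CPM in Ctrlm mice 1 to 4 and 0.391 CPM in cKOm mouse 4, and at most 0.133 CPM elsewhere. The sum of the 10 lay between 7.66 and 23.8 CPM, and Stab2, its most abundant member, lay between 5.13 and 17.2 CPM without this pattern. Among the other 7, Dnase1l3 and Timd4 were highest in Ctrlf mouse 1, at 10.8 and 0.5235 CPM, and Oit3 was highest in cKOf mouse 2. The remaining ones had the pattern in part. Clec4g was at 0.495, 0.395, 0.444 and 0.205 CPM in Ctrlm mice 1 to 4 and 0.147 CPM in cKOm mouse 4, but at 0.239 CPM in cKOm mouse 2. Marco was highest in Ctrlm mice 4, 3 and 1 (0.769, 0.642 and 0.297 CPM). Fcna was highest in Ctrlm mice 3, 1 and 2 (0.888, 0.594 and 0.395 CPM), but at 0 in Ctrlm mouse 4. Vsig4 was highest in Ctrlm mouse 4, but at 0 in Ctrlm mouse 1 and cKOm mouse 4. Pancreas markers were at 0 in every kidney for 7 of 11, and their sum did not exceed 0.547 CPM. The sum of 11 adrenal markers lay between 1.25 and 3.23 CPM, that of 5 blood markers between 46.7 and 228 CPM, that of 8 fat markers between 0.0476 and 270 CPM with Ctrlf mouse 6 highest, and that of 5 markers of tubular injury between 13.7 and 46.7 CPM. Each of these ranges overlapped between Ctrlm and cKOm, and their part in the levels of the hepatocyte transcripts was not tested.

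Outside the lists, 13983 tested genes with a mean of at least 1 CPM were ranked by the likeness of their log2 level to the mean of the 33 transcripts over the 24 kidneys, with Pearson's r as a description. This r pools the 2 clusters of kidneys and serves only to order the genes. The first 6 were Cyp3a11, Akr1c6, Cyp2c29, Ces1c, Mat1a and Apoc1, for which r within the 19 kidneys was 0.811, 0.685, 0.565, 0.555, 0.570 and 0.466, each with the same 5 kidneys as its 5 highest. The same 5 were also highest for Cyp2f2 and F10 among the 15 nearest genes. The other 7, Upp2, Ldhd, Masp2, Arfgap3, Gm15348, AW822252 and Ppt2, had at least 1 of their 5 highest values in another kidney. Ldhd, the dehydrogenase of D-lactate, was the most abundant of the 15, with a mean of 513 CPM.

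The 300-base windows around the RefSeq starts (250 bases before and 50 after) were at hand for 27 of the 33 genes, 1 window a gene. GTTAAT was found on either strand in 11 of them, or 40.7%, and in 7.2% of all 27025 such windows. Those 11 were Alb, F2, Fga, Fgb, Itih1, Vtn and the 5 Serpina1 genes, whose windows are related. TGTTTGC, a forkhead factor motif, was found in 11 as well, against 5.04% of all windows, and TGTTTAC in 3, or 11.1%, against 3.55%. TTGCNCAA was found in 3, against 2.92%, and the TATA box TATAAA in 6, or 22.2%, against 14.2%. GTTAAT was held both by genes with the 5 kidneys as their highest (F2, Vtn, Fgb) and by others (Serpina1a, Serpina1d, Itih1), and a match is a description of the letters alone.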

How the data were processed

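Whole-kidney RNA of 24 mice was sequenced from stranded mRNA libraries. Per the labels, the authors trimmed reads with cutadapt 1.8, aligned them to GRCm38 with STAR 2.5.3a and counted them per gene with HTSeq 0.9.1, and they deposited these counts without normalization, 1 file per kidney. The 5 closing lines that name no gene, 34.04% to 41.55% of each file total, were left out.

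The 33 transcripts and the marker lists were chosen with earlier results of these data known. The 16092 genes that reached 1 CPM in any kidney entered a test by edgeR 4.0.16 (quasi-likelihood, TMM, R 4.3.3) in 1 fit of 4 groups. Benjamini-Hochberg adjustment was over all genes, with the male and female genotype tests adjusted together, and the threshold was 0.05. All 33 passed that filter. Log2 levels had a prior count of 2 added. All members were named, with up to 4 genes of other lists by mean level and the 15 genes most alike; others were chosen after their values were seen. limma 3.58.1 (voom) and DESeq2 1.42.0 were alternatives. In simulated counts of the male comparison over 16092 genes edgeR recovered 74 of 100 genes changed by a log2 of 1 and 89 of 100 changed by 2, with 5 false calls. Replicate pairs within groups differed by more than sampling noise (chi-square per degree of freedom 9.83 to 99.2 over 60 pairs). Sequences came from RefSeq (GRCm38.p6) and GENCODE M21.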

Additional observations from a re-analysis of the deposited data

Results flagged for a closer look

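A kidney was singled out where its gap to the nearest of the 6 in its group was large for the group's range (Dixon's test at the 95% level). Of 132 groups of 6, 37 had such a kidney. Chance does this in about 1 in 20 groups where the groups are independent and their values normally distributed. The groups here share the same kidneys, and the transcripts were chosen for their common variation across them. The levels were also taken in CPM and not on a log scale. The count of 37 is therefore not set against that rate, and nothing is read from it. Of the 37, 21 were cKOm mouse 4, the highest each time. Its levels in CPM were 234.6 for Alb, 5.959 for Rbp4, 31.11 for Apoa1 and 13.77 for Apoa2. Among the inhibitors they were 12.89 for Serpina1c, 33.6 for Serpina1e, 32.58 for Serpina3k, 6.349 for Serpinc1, 8.498 for Ambp, 9.182 for Itih2, 4.054 for Itih3 and 4.2 for Itih4. They were 29.21 for Fgb, 26.23 for Fgg, 5.128 for F2, 9.426 for Kng1 and 8.547 for Vtn, and 35.46 for Ahsg, 8.938 for Hpx, 11.28 for Cps1 and 4.005 for Tat.

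In females, Ctrlf mouse 2 was the highest of its group for Alb (56.03 CPM), Apoh (0.9272), Serpinc1 (2.34), Cps1 (1.545) and Kng1 (3.665). Ctrlf mouse 3 was highest for Serpina1a (19.37), and Ctrlf mouse 6 for Serpina1e (1.732) and Hp (5.714). Of the cKOf kidneys, mouse 5 was highest for Serpina1b (4.227), Serpina1e (1.834) and Serpina3k (3.31), mouse 6 for Apoa2 (9.455), Apoc3 (8.962), Hpx (2.758) and F2 (1.379), and mouse 2 was lowest for Ambp (1.54).

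The genotype effect differed between the sexes, male minus female on the log2 scale, by 1.752 for Serpina1a and by -1.632 for Itih2 (edgeR adjusted p = 0.0154 and 0.0144).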

How the results depend on the processing

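The male count of 10 transcripts was 7 to 12 under 8 alternatives of tool, scaling, filter, adjustment and block. It was 2 with the hepatocyte index as a covariate, 1 without the 5 kidneys, and from 4 to 22 with 1 kidney left out. The female count was 1 under every alternative run. The count for the difference between sexes was 1 with the covariate and from 2 to 14 with 1 kidney left out, and that of Ctrlm against Ctrlf was 7 with the covariate and 6 without the 5 kidneys. Shares of all genes called were computed only in the main fit and, for the male and female genotype tests, without the 5 kidneys. The other counts show dependence on the setting and nothing more. For the 50 other hepatocyte transcripts the male count of 7 was 4 without the 5 kidneys, where only 23 were tested. It was from 7 to 35 with 1 kidney left out, under the limit of the filter given above. The female count of 0 was 1 with each sex fitted alone. The log2 fold change of Alb in males was 0.37 with the covariate and 0.42 without the 5 kidneys. The value of 0.42 followed from the choice of those kidneys by Alb. The 13 transcripts that followed the index were 0 with Alb as the index and 3 without the 5 kidneys. The causes were not tested. The replicate numbers did not pair the samples (r from -0.199 to 0.12 over 36 pairs, 3 over 0.1), and with the number as a replicate block the male count was 9, with Alb (edgeR adjusted p = 0.0681) and Serpina1a (0.0550) not called. Depth limits the 11 transcripts that were at or under 3 counts in at least 1 kidney.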
